A study of Mus musculus with 8 samples.

Results

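The genes described here are 10 genes of the canonical Wnt pathway that serve as its feedback targets or as its TCF transcription factors: Axin2, Nkd1, Dkk1, Lgr5, Rnf43, Sp5, Cdx1, Tcf7, Lef1 and Tcf7l1. They were chosen by symbol, and all 10 were found among the 24505 genes listed for each library. RNA was sequenced in 8 libraries of a mouse embryonic stem cell line in which Ino80, which encodes the catalytic subunit of the INO80 chromatin remodeller, can be deleted conditionally. In the naive state there were 2 libraries labelled Ino80 knockout (KO) and 2 labelled wild type (WT), grown with the MEK inhibitor PD0325901, the GSK3 inhibitor CHIR99021 and LIF. In the primed state there were 2 KO and 2 WT libraries, grown with FGF-2, Activin A and the tankyrase inhibitor XAV-939. Per the labels' protocols, 4-OHT at 100 nM was applied for 2 days to delete the gene, and cells were kept for 2 more days. The sources used here do not say whether WT cells received 4-OHT as well. All 4 groups carry the same line name, which is that of 1 conditional knockout line, so the results describe that line in these media.

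In the canonical pathway, a Wnt ligand bound to a Frizzled receptor and an LRP co-receptor stops the destruction complex of AXIN, APC, GSK3 and casein kinase from marking beta-catenin for degradation. Beta-catenin then enters the nucleus and binds TCF and LEF factors at target genes, several of which encode inhibitors that feed back on the pathway. A GSK3 inhibitor such as CHIR99021 lets beta-catenin accumulate without a ligand, whereas XAV-939 stabilizes AXIN and so favours its breakdown. In mouse embryonic stem cells TCF7L1 acts mainly as a repressor of pluripotency genes, a repression that beta-catenin relieves. CHIR99021 in the naive medium and XAV-939 in the primed medium therefore act on this pathway in opposite directions.

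TCF and LEF factors bind a short DNA motif with the core CTTTG followed by A or T bases. The promoters printed here are the windows of these genes that held CTTTGAA or CTTTGAT. Other forms of the motif, such as CTTTGTT, were not searched and stay in small letters where the printed windows hold them. The letters CTTTGAA and CTTTGAT, which cannot overlap each other on the same strand, were searched on both strands in RefSeq promoter windows of the build GRCm38.p6 (250 bases before to 50 bases from the start). A match was present in 8.65% of the 32851 mouse windows. There were 13 windows for 8 of the 10 genes, and 2 windows, 1 of Sp5 and 1 of Dkk1, held a match, set in capitals. A match describes the letters only.
Sp5, chr2:70474673-70474972, plus strand: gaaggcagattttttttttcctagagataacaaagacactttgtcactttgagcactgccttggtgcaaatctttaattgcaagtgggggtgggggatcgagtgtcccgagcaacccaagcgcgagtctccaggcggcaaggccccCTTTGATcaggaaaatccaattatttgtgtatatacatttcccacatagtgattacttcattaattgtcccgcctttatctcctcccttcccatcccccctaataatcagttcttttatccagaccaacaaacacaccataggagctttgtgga
Dkk1, chr19:30549447-30549746, minus strand: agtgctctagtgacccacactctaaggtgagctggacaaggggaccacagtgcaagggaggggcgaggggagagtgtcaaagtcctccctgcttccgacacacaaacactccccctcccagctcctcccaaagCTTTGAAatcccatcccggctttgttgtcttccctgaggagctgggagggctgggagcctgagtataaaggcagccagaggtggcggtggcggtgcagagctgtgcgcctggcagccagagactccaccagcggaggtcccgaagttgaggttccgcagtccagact
The match lay 104 to 98 bases before the Sp5 start and 117 to 111 bases before the Dkk1 start.

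Levels are RPKM, read counts divided by gene length and library size, as scaled further by the authors, and means carry the SD of 2 libraries. Changes are differences of log2(RPKM + 1) ± SE, KO minus WT, from limma, called at a Benjamini-Hochberg adjusted p under 0.05 over 13428 tested genes. This scale understates the changes of genes near or below 1 RPKM. The labels do not say whether the 2 libraries of a group are separate cultures. The p-values therefore rest on library-to-library spread that could be technical. The targeted gene itself, Ino80, stood at 15.9 and 15.1 RPKM in the naive libraries labelled KO and at 17.0 and 14.5 RPKM in naive WT libraries, which overlap. It stood at 9.12 and 8.74 RPKM in primed KO and at 15.9 and 20.3 RPKM in primed WT libraries. The naive libraries are therefore called labelled KO throughout. Values summed to between 341480 and 507598 RPKM per library, and the sequencing depth is unknown. The median change of all tested genes was 0.049 in the naive and -0.53 in the primed state. The authors' scaling method is not stated, and whether it used the ERCC spike-in RNA is not known, so whether the primed median is a matter of scale or a measured fall in RNA cannot be told. Every primed change carries this limit, and for most the distance from that median is given as the change relative to all genes. That distance takes no account of a gene's level and is not a corrected change. For Porcn it was -0.402, against -0.176 after quantile normalization within each state. For Tcf7l1 it was -0.454, against -0.535. For Ino80 the primed change was -0.93 ± 0.19 (limma adjusted p = 2.0e-06), or -0.40 relative to all genes. The pluripotency markers Pou5f1, Sox2, Nanog, Lin28a, Utf1 and Sall4 summed to 989 RPKM or more in every library. Pou5f1 was the highest of these in every library, at 560 to 694 RPKM, and the other markers were not high throughout. Nanog came next in naive libraries, at 506 to 570 RPKM. Lin28a averaged 5.46 RPKM in naive libraries labelled KO and 9.49 RPKM in naive WT. In primed KO libraries Nanog averaged 37.1 RPKM and Sall4 23.8 RPKM. The 7 naive-state markers summed to between 751 and 854 RPKM in the naive but at most 10.6 RPKM in the primed libraries, as the labels say.

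Of the 10 genes, 8 passed the filter of at least 1 RPKM in at least 2 libraries, and Dkk1 and Lgr5 did not. In the naive state 1 of the 8, Lef1, was called higher and 1, Cdx1, lower in the libraries labelled KO, against 6.08% and 5.85% of all tested genes (11.9% in either direction). In the primed state 2 were called higher, Lef1 and Sp5, and 3 lower, Nkd1, Tcf7 and Tcf7l1, against 4.16% and 59.3% of all tested genes (63.4% in either direction). After quantile normalization within each state 39.0% of tested genes were called higher and 35.1% lower in the primed state and 32.1% and 27.3% in the naive state. Of the 8 genes, 3 were then called higher and 3 lower in the primed state, and 3 and 5 in the naive state. After loess normalization 37.0% and 36.5% were called higher and lower in the primed state and 29.1% and 28.4% in the naive state. The median change of the 8 was -0.30 in the naive and -0.48 in the primed state.

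**Figure D1:**
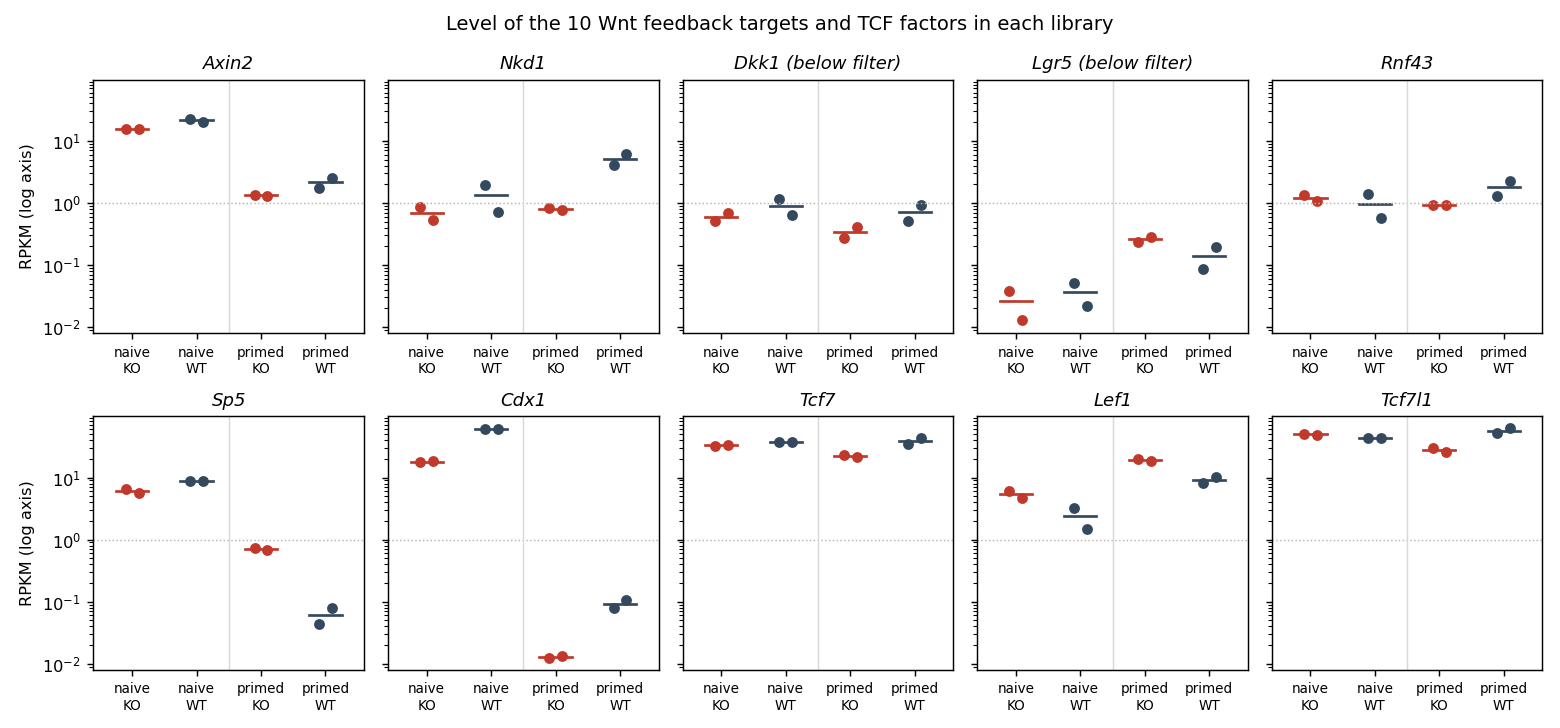
RPKM of the 10 genes in each library on a log axis, KO label in red and WT in dark blue, with a bar at the mean of the 2 libraries of a group and a dotted line at 1 RPKM. Cdx1 sits near 18 RPKM in naive libraries labelled KO and near 61 RPKM in naive WT libraries, and Lef1 is higher with the KO label in both states.

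Among the feedback inhibitors, Axin2, a scaffold of the destruction complex that is the most widely used readout of canonical signalling, stood at 15.8 and 15.7 RPKM in naive libraries labelled KO and at 22.7 and 20.1 RPKM in naive WT libraries. The groups did not overlap, as was so for 52.2% of tested genes in the naive state, with KO lower for 21.0%. The difference of -0.42 ± 0.26 did not pass the test (limma adjusted p = 0.341), and it did after quantile normalization, at -0.47 (adjusted p = 4.0e-05), and with each state fitted alone (adjusted p = 0.00571). In bulk RNA, fewer cells that express a gene and less RNA per cell cannot be told apart. In the primed state Axin2 was low, at 1.34 and 1.30 RPKM in KO and at 1.76 and 2.56 RPKM in WT libraries. The primed difference was -0.43 ± 0.26 (limma adjusted p = 0.125), or 0.098 relative to all genes. Without primed WT replicate 1 it was -0.62 and called lower (adjusted p = 0.0257), without primed WT replicate 2 it was -0.25 and not called (adjusted p = 0.441), and with no variance trend it was called lower (adjusted p = 0.0395). Its sign turned after quantile normalization, where it was 0.25 and called higher (adjusted p = 5.8e-04), and after loess normalization, at 0.17.

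Nkd1, a cytoplasmic inhibitor that binds Dishevelled, had the lowest primed change of the 8 tested genes on the log2(RPKM + 1) scale. It stood at 0.819 and 0.782 RPKM in primed KO and at 4.05 and 6.25 RPKM in primed WT libraries. Both KO libraries were far below both WT libraries, with means of 0.801 ± 0.026 RPKM in KO and 5.15 ± 1.56 RPKM in WT (SD, n = 2 each). Groups did not overlap for 83.2% of tested genes in the primed state, with KO lower for 76.4%. The change was -1.75 ± 0.27 (limma adjusted p = 9.1e-10), which is -1.21 from the median of all genes, and -1.04 after quantile normalization (adjusted p = 1.1e-05). Every setting that gave a value kept this call. In the naive state Nkd1 stood at 0.861 and 0.525 RPKM in libraries labelled KO and at 1.94 and 0.717 RPKM in WT libraries, which overlap, and the difference of -0.42 ± 0.27 did not pass (limma adjusted p = 0.382). Without naive WT replicate 2 it was -0.81 and did (adjusted p = 0.0105), but without naive WT replicate 1 it was -0.027 (adjusted p = 0.954). After quantile normalization it was -0.43 and called lower (adjusted p = 0.0031).

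Rnf43, a membrane ubiquitin ligase that removes Frizzled receptors from the cell surface, stayed near 1 RPKM. It stood at 1.36 and 1.09 RPKM in naive libraries labelled KO and at 1.37 and 0.563 RPKM in naive WT libraries, a difference of 0.20 ± 0.26. In primed libraries it stood at 0.917 and 0.916 RPKM in KO and at 1.31 and 2.26 RPKM in WT, a difference of -0.52 ± 0.26, or 0.016 relative to all genes. Neither difference passed (limma adjusted p = 0.729 and 0.0736), and the primed sign turned after quantile and loess normalization. Rnf43 was called lower in the primed state without naive WT replicate 1 or 2 or primed WT replicate 1 (adjusted p = 0.00913, 0.00941 and 0.0142), with each state fitted alone (0.019) and with no variance trend (0.0471). Without primed WT replicate 2 the primed difference of Rnf43 was -0.27 and not called (adjusted p = 0.464). Dkk1, a secreted inhibitor that binds LRP5 and LRP6 and whose promoter is printed above, reached 1 RPKM in 1 library. Its values were 0.515 and 0.686 RPKM in naive libraries labelled KO, 1.17 and 0.645 RPKM in naive WT, 0.277 and 0.409 RPKM in primed KO and 0.520 and 0.933 RPKM in primed WT libraries. Lgr5, a receptor of R-spondins and a stem-cell marker in the intestine, lay between 0.0130 and 0.0519 RPKM in naive libraries. In primed libraries it stood at 0.233 and 0.287 RPKM in KO and at 0.0866 and 0.197 RPKM in WT.

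Values this low were shared by many genes. No value was 0 in any file, and 4017 genes in the naive and 4501 genes in the primed state shared their value with another gene in all 4 libraries of the state. Among these tied genes the median log2 ratio of KO to WT means was -0.33 in the naive and -1.61 in the primed state. Primed Dkk1 averaged 0.343 RPKM in KO and 0.727 RPKM in WT. The 51 tied genes nearest to its KO level had WT means of 0.787 to 1.16 RPKM, above that of Dkk1, and those nearest to its WT level had KO means of 0.276 to 0.442 RPKM, a range that holds the KO mean of Dkk1. Whether any of these genes had reads in a given library cannot be told from the values.

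Of the transcription factors among the targets, Cdx1 changed most in the naive state. Cdx1 encodes a caudal-type homeobox factor that patterns the anterior-posterior axis and is induced by both Wnt and retinoic acid. It stood at 17.7 and 18.4 RPKM in naive libraries labelled KO and at 61.2 and 60.1 RPKM in naive WT libraries. The 2 libraries of each group lay close together and the groups were far apart, at 18.0 ± 0.516 RPKM with the KO label and 60.7 ± 0.789 RPKM in WT (SD, n = 2 each), a ratio of means of 0.297. The change of -1.69 ± 0.27 (limma adjusted p = 2.5e-08) was the 12th lowest of 13428 tested genes. It kept its call under all 17 other settings, at -1.73 after quantile normalization (adjusted p = 5.1e-07) and between -1.72 and -1.67 with each library left out. In primed libraries Cdx1 was nearly absent, at 0.0123 and 0.0133 RPKM in KO and at 0.0794 and 0.105 RPKM in WT. The 51 tied genes nearest to its primed KO level had WT means of 0.0276 to 0.0532 RPKM, below the 0.0924 RPKM of Cdx1. The primed difference of -0.11 ± 0.27 did not pass (limma adjusted p = 0.744), and its sign turned with median centring and after loess normalization.

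Sp5, a zinc finger factor of the SP family and a direct beta-catenin target, was called higher in primed KO libraries. It stood at 6.43 and 5.66 RPKM in naive libraries labelled KO and at 8.88 and 8.85 RPKM in naive WT libraries. The naive difference of -0.49 ± 0.28 missed the threshold as deposited (limma adjusted p = 0.300) and passed it after quantile normalization, at -0.53 (adjusted p = 0.0034). Its primed values were 0.720 and 0.680 RPKM in KO and 0.0431 and 0.0805 RPKM in WT libraries. All 4 primed values lay below 1 RPKM, and both KO values were above both WT values, as was so for 6.77% of tested genes. The primed change was 0.68 ± 0.28 (limma adjusted p = 0.0266), which is 1.21 above the median of all genes, and 1.00 after quantile normalization (adjusted p = 5.7e-05). A gene as low as Sp5 in primed WT libraries cannot fall as far as that median on this scale, which enlarges the 1.21. The 51 tied genes nearest to the WT level of Sp5 had primed KO means of 0.0199 to 0.0203 RPKM, against 0.70 RPKM for Sp5 in primed KO libraries. The call as deposited was close to the threshold and ended without any 1 of primed KO replicates 1 and 2, primed WT replicates 1 and 2 and naive KO-labelled replicates 1 and 2, at adjusted p between 0.0603 and 0.180, with no filter (adjusted p = 0.149) and with a replicate block (adjusted p = 0.0624).

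Among the TCF factors, Lef1, which mainly activates targets together with beta-catenin, was called higher with the KO label in both states. It stood at 5.97 and 4.71 RPKM in naive libraries labelled KO and at 3.25 and 1.48 RPKM in naive WT libraries. The naive WT libraries differed from each other more than the KO ones, and the groups did not overlap, with KO higher as for 31.2% of tested genes. The naive change was 0.96 ± 0.25 (limma adjusted p = 0.00185), and it was not called without naive KO-labelled replicate 1 (0.81, adjusted p = 0.256), without naive WT replicate 2 (0.57, adjusted p = 0.135) or with each state fitted alone (adjusted p = 0.103). Primed libraries had Lef1 at 20.0 and 18.2 RPKM in KO and at 8.17 and 10.2 RPKM in WT libraries. Means were 19.1 ± 1.21 RPKM in KO and 9.18 ± 1.42 RPKM in WT (SD, n = 2 each). The primed change was 0.99 ± 0.25 (limma adjusted p = 1.9e-04), which lies 1.52 above the median of all genes, and 1.64 after quantile normalization (adjusted p = 9.7e-07). It kept its call under every setting tried and was the 135th highest of 13428 tested genes, and the naive change was the 121st highest.

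Tcf7, whose product TCF1 also activates targets, stood at 32.8 and 33.3 RPKM in naive libraries labelled KO and at 37.8 and 37.2 RPKM in naive WT libraries. The naive difference of -0.18 ± 0.13 did not pass as deposited (limma adjusted p = 0.455), and it did after quantile normalization, at -0.21 (adjusted p = 2.6e-04). Primed libraries had Tcf7 at 23.4 and 21.6 RPKM in KO and at 34.5 and 42.8 RPKM in WT libraries. The primed change was -0.74 ± 0.13 (limma adjusted p = 5.8e-08), of which -0.21 was left from the median of all genes, and -0.24 after quantile normalization (adjusted p = 7.1e-05). With median centring it was -0.05 and not called (adjusted p = 0.711).

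Tcf7l1, the repressor that was formerly named Tcf3, was the most abundant of the 10 genes in 3 of the 4 groups and second to Cdx1 in naive WT libraries. It stood at 51.2 and 48.2 RPKM in naive libraries labelled KO and at 43.0 and 43.4 RPKM in naive WT libraries. The naive difference of 0.20 ± 0.12 missed the threshold as deposited (limma adjusted p = 0.318). It was called higher after quantile normalization, at 0.17 (adjusted p = 0.0165), and with each state fitted alone (adjusted p = 0.0237). Its primed values were 30.4 and 26.1 RPKM in KO and 51.3 and 63.0 RPKM in WT libraries, so both KO values were lower. Means were 28.2 ± 3.07 RPKM in KO and 57.1 ± 8.28 RPKM in WT (SD, n = 2 each), a ratio of 0.495. The primed change was -0.99 ± 0.12 (limma adjusted p = 6.6e-16), -0.45 from the median of all genes, and -0.53 after quantile normalization (adjusted p = 1.7e-05). With median centring it was -0.29 and not called (adjusted p = 0.0596).

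**Figure D2:**
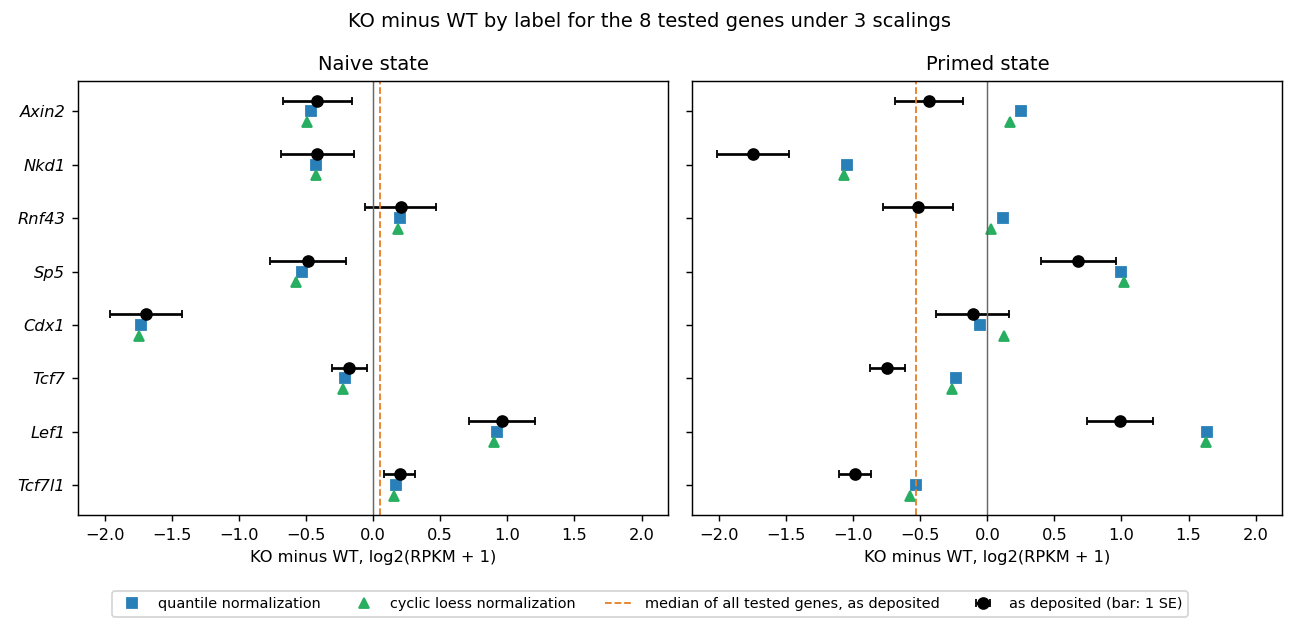
Change of the 8 tested genes, KO minus WT on the log2(RPKM + 1) scale, in the naive (left) and primed state (right), as deposited with bars of 1 SE and after quantile and cyclic loess normalization. The dashed line is the median of all tested genes, at 0.049 and -0.53, and the primed values of Axin2, Rnf43 and Cdx1 lie on different sides of 0 under different scalings.

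Known targets of TCF7L1 repression in embryonic stem cells, Esrrb, Nanog, Klf2 and Tfcp2l1, were all tested. In the naive state 0 of these 4 were called in either direction by limma as deposited, with 0 at an unadjusted p under 0.05, against 2 higher and 1 lower after quantile normalization, where 32.1% and 27.3% of all genes were called. For primed libraries 3 were called lower and 0 higher, against 59.3% and 4.16% of all tested genes. Nanog, a core pluripotency factor, stood at 38.6 and 35.5 RPKM in primed KO and at 111 and 122 RPKM in primed WT libraries, a change of -1.63 ± 0.082 (limma adjusted p = 8.8e-86), or -1.09 relative to all genes. Esrrb, an orphan nuclear receptor of the naive state, stood at 0.217 and 0.244 RPKM in primed KO and at 2.17 and 2.90 RPKM in primed WT libraries, a change of -1.51 ± 0.16 (limma adjusted p = 1.9e-19), or -0.98 relative to all genes.

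The difference between libraries labelled KO and WT itself differed between the states for 5 of the 8 genes, with 2 higher, Sp5 and Cdx1, and 3 lower, Nkd1, Tcf7 and Tcf7l1, in the primed difference minus the naive one, against 2.16% and 47.4% of all tested genes (49.6% in either direction). After quantile normalization 33.6% and 30.8% of genes, and after loess normalization 32.7% and 30.6%, were called higher and lower. The median difference of all genes was -0.59. For Cdx1 the difference was 1.59 ± 0.38 (limma adjusted p = 2.2e-04), which sets a fall in naive libraries beside primed levels of at most 0.105 RPKM. With a pseudocount of 0.1 it was 0.98 and not called (adjusted p = 0.172). For Sp5 it was 1.17 ± 0.40 (adjusted p = 0.00992), and for Nkd1 -1.33 ± 0.38 (adjusted p = 0.00214), or -0.74 relative to all genes. The Nkd1 call ended without naive KO-labelled replicate 1 (adjusted p = 0.0602) and with no filter (0.0584), and the Sp5 call without any 1 of the 4 libraries labelled KO (adjusted p between 0.0535 and 0.0880) and with no filter (0.103). For Tcf7l1 it was -1.19 ± 0.17 (adjusted p = 3.7e-11), or -0.60 relative to all genes, and with median centring -0.43 and not called (adjusted p = 0.0652). The value for Tcf7, -0.57 ± 0.18 (adjusted p = 0.0066), was 0.022 from the median of all genes, and -0.022 after quantile normalization (adjusted p = 0.631). It also ended without naive KO-labelled replicate 1 or 2 or primed KO replicate 2 (adjusted p = 0.062, 0.0686 and 0.0781). For Lef1 the difference was 0.029 ± 0.35 (adjusted p = 0.95) as deposited and 0.71 after quantile normalization (adjusted p = 0.0013), and for Axin2 it was -0.017 ± 0.36 (adjusted p = 0.972) and 0.72 (adjusted p = 2.2e-05).

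As the scaling is not stated, levels were not tested between naive and primed libraries, and the rank of each gene within its own library is given beside them. Cdx1 lay at percentiles 80.1 and 80.9 of all genes in naive libraries labelled KO and at 94.8 and 94.3 in naive WT libraries, but at 8.8 and 8.7 in primed KO and at 29.7 and 25.4 in primed WT libraries. Axin2 lay at 78.4 and 78.7 in naive libraries labelled KO and at 83.4 and 83.5 in naive WT, against 56.2 in both primed KO and 54.5 and 54.1 in primed WT libraries. Sp5 lay at 69.3 and 72.9 in naive WT but at 16.8 and 16.2 in primed WT libraries. These 3 targets thus ranked higher in all naive libraries than in any primed library. Rnf43 and Dkk1 overlapped between the states. Rnf43 lay between 50.5 and 53.0 in naive and between 52.4 and 53.9 in primed libraries. Dkk1 lay between 44.6 and 51.3 in naive and between 44.1 and 48.5 in primed libraries. The media also differ in PD0325901, LIF, FGF-2 and Activin A, whose parts cannot be told apart from those of CHIR99021 and XAV-939.

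Lgr5 and Lef1 ranked higher in every primed than in every naive library, and Nkd1 did so among WT libraries. Lgr5 lay at percentiles 42.6 and 44.6 in primed KO and 30.8 and 33.4 in primed WT libraries, and between 5.8 and 23.8 in naive libraries. The 51 tied genes nearest to its naive KO-labelled mean had WT means of 0.0324 to 0.0612 RPKM, a range that holds its 0.0368 RPKM. Those nearest to its WT mean had KO-labelled means of 0.0278 to 0.0404 RPKM, above its 0.026 RPKM. In naive WT libraries 0.0519 RPKM ranked at 9.9 and 0.0217 RPKM at 23.8, so ranks of such low values depend on the library. In WT libraries Nkd1 lay at percentiles 60.6 and 61.2 in the primed and at 54.0 and 51.9 in the naive state. In primed KO libraries it lay at 53.0 and 52.8. Among WT libraries Lef1 lay at 67.9 and 66.7 in the primed and at 58.3 and 56.8 in the naive state. Lef1 reached 84.6 and 84.5 in primed KO libraries. Tcf7 and Tcf7l1 stayed between 86.6 and 93.4 in all 8 libraries. Within the groups, neighbours in the order of levels that overlapped were Sp5 and Lef1, and Nkd1 and Dkk1, in naive libraries labelled KO, and Lef1, Nkd1, Rnf43 and Dkk1, each with the next, in naive WT. In primed KO they were Dkk1 and Lgr5, and in primed WT they were Axin2 and Rnf43, and Lgr5, Cdx1 and Sp5, each with the next.

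**Figure D3:**
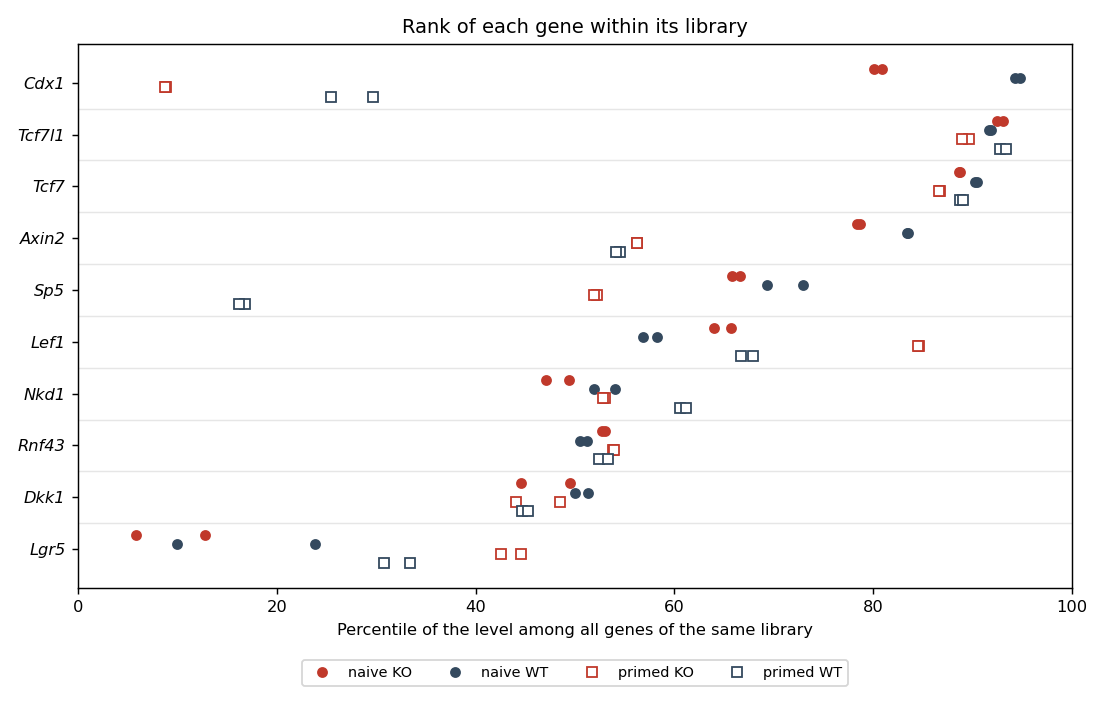
Percentile of each gene's level among the 24505 genes of the same library, with filled circles for naive and open squares for primed libraries, KO label in red and WT in dark blue. Cdx1, Axin2 and Sp5 rank higher in every naive than in every primed library, while Tcf7 and Tcf7l1 stay above percentile 86.

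The other genes of the pathway were taken from lists of ligands, receptors, inhibitors and nuclear factors, 90 genes in all, of which 68 were tested. In the naive state 4 of the 68 were called higher and 4 lower, against 6.08% and 5.85% of all tested genes. In the primed state 9 were called higher and 29 lower, against 4.16% and 59.3% of all tested genes. For each list that follows, these shares go beside the primed counts as deposited, and 6.08% and 5.85% beside the naive ones. Counts after quantile normalization go beside 39% higher and 35.1% lower in the primed state, and 32.1% and 27.3% in the naive state. The pathway genes had a primed median of -0.36 against -0.53 for all genes. Of 25 genes of ligands, R-spondins and ligand secretion, 10 were tested, and 3 were called higher and 2 lower in the primed state. Wnt8a and Wnt3, both ligands of the primitive streak, rose in primed KO libraries. Wnt8a stood at 18.1 and 16.5 RPKM in primed KO and at 0.507 and 0.385 RPKM in primed WT libraries, a change of 3.66 ± 0.28 (limma adjusted p = 1.8e-36), or 4.20 relative to all genes. Wnt3 stood at 19.2 and 17.3 RPKM in primed KO and at 3.47 and 4.79 RPKM in primed WT libraries, a change of 1.92 ± 0.28 (limma adjusted p = 8.9e-11). Wnt8a was called higher in the naive state too, at 2.95 and 2.54 RPKM in libraries labelled KO and 1.11 and 0.410 RPKM in WT, but not without either naive KO-labelled library (limma adjusted p = 0.151 and 0.0651) or with no filter (adjusted p = 0.0831).

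Wls and Porcn, which carry and acylate Wnt proteins for secretion, fell in the primed state. Wls stood at 13.3 and 12.3 RPKM in primed KO and at 25.9 and 31.3 RPKM in primed WT libraries, a change of -1.09 ± 0.18 (limma adjusted p = 4.5e-09), or -0.56 relative to all genes. It was called lower in the naive state as well, at 10.1 and 9.90 RPKM in libraries labelled KO and 16.9 and 14.2 RPKM in WT, a change of -0.58 ± 0.18 (limma adjusted p = 0.0116). This call ended without either naive KO-labelled library, without naive WT replicate 1 and without either primed KO library. It also ended with a replicate block (limma adjusted p = 0.0566) and with no variance trend (0.0522). Porcn changed by -0.94 ± 0.26 in the primed state (adjusted p = 6.7e-04), or -0.40 relative to all genes, of which -0.18 was left after quantile normalization (adjusted p = 0.0395).

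Of 15 receptor genes, all tested, 0 were called in the naive state by limma, with 0 at an unadjusted p under 0.05, and 1 was called higher and 9 lower in the primed state, beside 59.3% lower among all tested genes. After quantile normalization 3 were called higher and 6 lower in the naive state and 4 and 6 in the primed state. Fzd10 was the receptor that rose, at 13.7 and 12.2 RPKM in primed KO and at 4.38 and 6.09 RPKM in primed WT libraries, a change of 1.17 ± 0.19 (limma adjusted p = 2.1e-09). Fzd4 and Fzd2 changed by -1.67 and -1.34, or -1.14 and -0.81 relative to all genes. Fzd2 stood at 9.73 and 7.99 RPKM in primed KO and at 20.2 and 28.3 RPKM in primed WT libraries (adjusted p = 1.9e-06). Of 13 secreted inhibitors and their regulators, 7 were tested, with 0 higher and 1 lower in the naive and 0 and 4 in the primed state. Sfrp1, a secreted decoy of Wnt proteins, was the one lower in both. It stood at 12.0 and 11.3 RPKM in naive libraries labelled KO and at 23.4 and 21.2 RPKM in naive WT, a change of -0.88 ± 0.20 (limma adjusted p = 3.0e-04) that ended without naive KO-labelled replicate 2 (adjusted p = 0.0829). In the primed state it stood at 3.46 and 3.6 RPKM in KO and at 16.1 and 21.4 RPKM in WT libraries, a change of -2.11 ± 0.20 (adjusted p = 4.2e-24), or -1.58 relative to all genes. Sfrp4, of the same family, changed by -1.47 ± 0.28 in the primed state (adjusted p = 5.5e-07), or -0.93 relative to all genes.

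Of 14 genes of the destruction complex, Dishevelled proteins and tankyrases, 1 was called higher and 0 lower in the naive state and 1 and 7 in the primed state, or 9 and 4 in the primed state after quantile normalization. The naive one was Dvl3, a Dishevelled gene, at 28.9 and 29.5 RPKM in libraries labelled KO and 23.0 and 20.1 RPKM in WT (limma adjusted p = 0.0363). This call ended without any 1 of 5 libraries, with a replicate block (limma adjusted p = 0.117), with no filter (0.0601) and with no variance trend (0.162). Dvl1, another Dishevelled gene, and Btrc, which encodes the ubiquitin ligase subunit that recognizes phosphorylated beta-catenin, changed by -1.05 and -0.90 in the primed state, or -0.52 and -0.36 relative to all genes. For Btrc -0.14 was left after quantile normalization (adjusted p = 0.0149). Of 15 nuclear cofactors, 2 were called higher and 1 lower in the naive and 2 and 4 in the primed state, or 10 and 2 in the primed state after quantile normalization. Ctnnb1, the gene of beta-catenin, stood at 335 and 328 RPKM in primed KO and at 240 and 256 RPKM in primed WT libraries, a rise of 0.42 ± 0.078 (limma adjusted p = 3.0e-07). In naive libraries it stood at 240 and 245 RPKM with the KO label and at 242 and 275 RPKM in WT.

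Of the Groucho co-repressors that TCF factors recruit, Tle4 rose and Tle3 fell in primed KO libraries. Tle4 stood at 28.6 and 26.8 RPKM in primed KO and at 16.2 and 19.1 RPKM in primed WT libraries (0.63 ± 0.14, limma adjusted p = 2.5e-05). Tle3 stood at 11.4 and 10.0 RPKM in primed KO and at 27.3 and 34.2 RPKM in primed WT libraries (-1.44 ± 0.16, adjusted p = 1.3e-17, or -0.90 relative to all genes). Aes, a short Groucho-related gene, was called lower in both states, by -0.36 ± 0.099 in the naive state, at 117 and 116 RPKM with the KO label and 140 and 160 RPKM in WT, and by -1.21 ± 0.099 in the primed state, or -0.68 relative to all genes. The naive calls of Aes, Tle4 (0.42) and the co-repressor gene Ctbp2 (0.35) each ended without naive KO-labelled replicate 1, naive KO-labelled replicate 2 or naive WT replicate 2. With no variance trend each ended too (limma adjusted p = 0.251, 0.153 and 0.242, in that order). Those of Aes and Ctbp2 ended with median centring (0.0777 and 0.0635). Those of Tle4 and Ctbp2 ended with a replicate block (0.0902 and 0.0954) and without either primed KO library. The Ctbp2 call also ended with no filter (0.0578) and without naive WT replicate 1.

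Of 8 other Wnt targets, 7 were tested, with 0 higher and 1 lower in the naive and 2 and 3 in the primed state. The 2 that rose in primed KO libraries were T and Tnfrsf19. T, the mesoderm factor Brachyury, stood at 37.4 and 33.7 RPKM in primed KO and at 1.94 and 2.89 RPKM in primed WT libraries, against 0.5 and 0.357 RPKM in naive libraries labelled KO and 2.44 and 1.01 RPKM in naive WT. It was the target called lower in the naive state (-0.88 ± 0.28, limma adjusted p = 0.0186). The naive WT mean of T, 1.73 RPKM, was under the naming level of 2 RPKM, so this call was not followed through the other settings. Tnfrsf19, a TNF receptor family member also known as Troy, stood at 6.77 and 6.33 RPKM in primed KO and at 1.32 and 2.17 RPKM in primed WT libraries, a change of 1.48 ± 0.25 (limma adjusted p = 2.5e-08). Nkd2, the paralogue of Nkd1, stood at 1.07 and 1.20 RPKM in primed KO and at 2.52 and 3.39 RPKM in primed WT libraries, a change of -0.89 ± 0.26 (adjusted p = 0.00155), or -0.35 relative to all genes. Of this -0.18 was left after quantile normalization (adjusted p = 0.0442), and the call ended with median centring (adjusted p = 0.169) and without primed KO replicate 1 (0.0513). Sp8, the SP family member called lower in the primed state (-0.77 ± 0.28, adjusted p = 0.0100), was at -0.006 after quantile normalization (adjusted p = 0.933). Its call also ended without primed KO replicate 1 or 2 or primed WT replicate 2 (adjusted p = 0.101, 0.113 and 0.145).

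**Figure D4:**
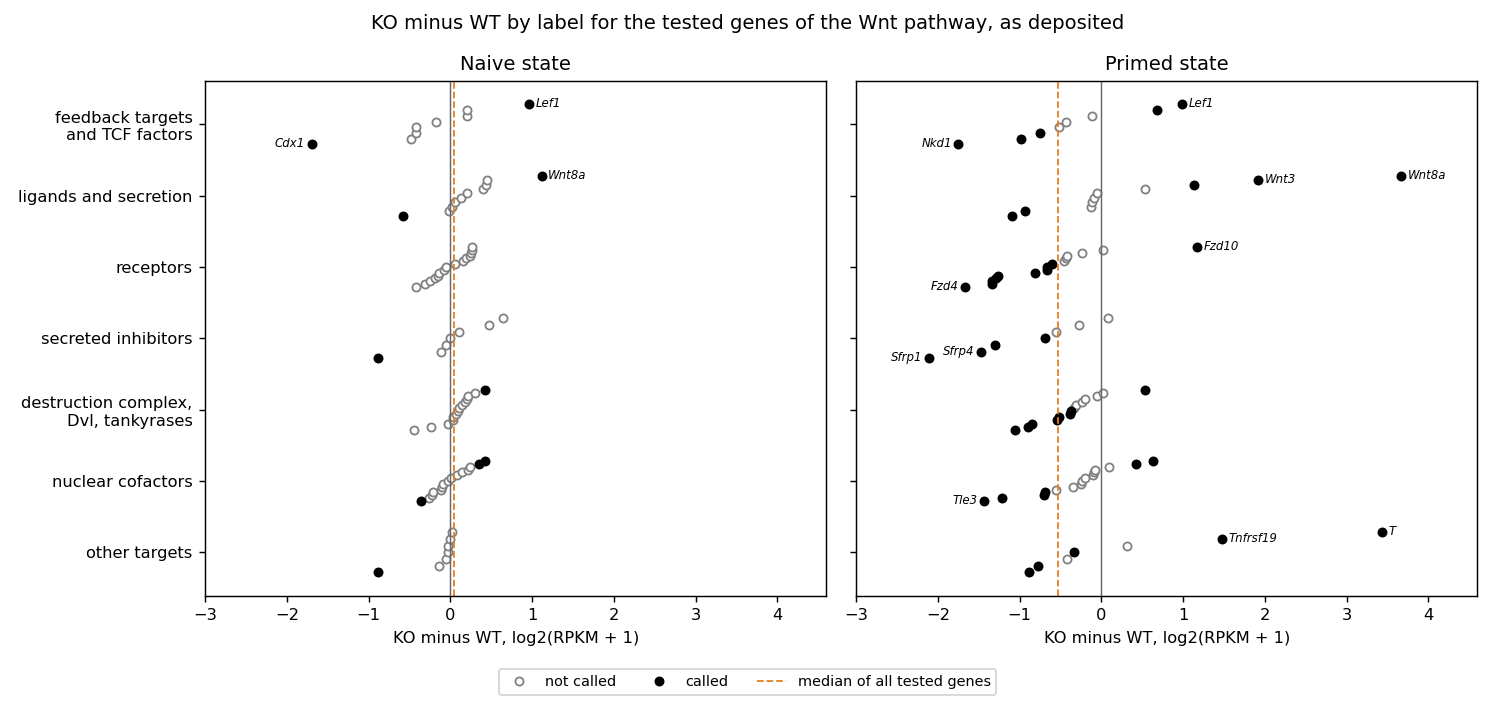
Change of each tested gene of the Wnt pathway lists, KO minus WT on the log2(RPKM + 1) scale as deposited, in the naive (left) and primed state (right), with filled points for called and open points for other genes. Wnt8a and T stand apart at 3.66 and 3.43 in the primed state, while the medians of the receptors and secreted inhibitors, -0.67 and -0.68, lie left of the dashed median of all genes.

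Summed levels of marker lists of other cell types differed with the KO label in the primed state. The 4 mesoderm markers T, Mixl1, Mesp1 and Tbx6 summed to between 34.6 and 38.3 RPKM in primed KO and to between 3.97 and 5.53 RPKM in primed WT libraries, with 2 of the 4 below 1 RPKM in every library. T made up 35.5 RPKM of the KO mean, and the other 3 were lower in primed KO libraries, Tbx6 at 0.862 RPKM in KO and 1.84 RPKM in WT (limma adjusted p = 0.0313), Mixl1 at 0.0565 RPKM in KO and 0.411 RPKM in WT, and Mesp1 at 0.0318 RPKM in KO and 0.0849 RPKM in WT, the last 2 untested. The 4 trophoblast markers, among them Eomes, summed to between 7.83 and 7.97 RPKM in primed KO and to between 2.04 and 2.44 RPKM in primed WT libraries, of which Eomes averaged 6.59 RPKM in KO and 1.18 RPKM in WT. Krt7 averaged 0.697 RPKM in KO and 0.294 RPKM in WT. Tfap2c was lower, at 0.598 RPKM in KO and 0.708 RPKM in WT, and not called (limma adjusted p = 0.784). Elf5 was lower too, at 0.00987 RPKM in KO and 0.0520 RPKM in WT, and Krt7 and Elf5 were untested. The 4 neural markers summed to between 133 and 140 RPKM in primed KO and to between 85.2 and 99.5 RPKM in primed WT libraries. Nes averaged 134 RPKM in KO and 73.7 RPKM in WT, whereas Sox1 was called lower, at 1.68 RPKM in KO and 9.63 RPKM in WT (limma adjusted p = 2.7e-11), as was Pax6, at 0.96 RPKM in KO and 9.04 RPKM in WT (adjusted p = 3.9e-17). The 4 fibroblast markers summed to between 5.82 and 5.87 RPKM in primed KO and to between 12.6 and 18.4 RPKM in primed WT libraries. No marker is listed at 0 in any library, but neither is any other gene, so this does not show that a marker was expressed. The 5 primitive endoderm markers summed to at most 5.65 RPKM in any library. The part of these differences in the changes above was not tested.

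By a rule on likeness, the genes with the pattern closest to 3 of the members were named. Likeness was Pearson's r over 8 libraries of log2(RPKM + 1), centred within each state, and the libraries share their scaling. For Axin2 these were Cpped1, Mrpl19 and Ppp2r1b, with r of 0.999, 0.997 and 0.994. For Lef1 they were Homer3, Arap2 and Ripk4, with r of 0.995, 0.987 and 0.985. For Tcf7l1 they were Drap1, Pim3 and Ltbp4, with r of 0.998, 0.998 and 0.997. Of about 7956 genes compared, 168 had an r above 0.95 with Axin2, 47 with Lef1 and 1280 with Tcf7l1, so such values were common for Tcf7l1 and rarer for Lef1.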

How the data were processed

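Total RNA was sequenced in 8 libraries, with ERCC spike-in RNA added to the lysate and ribosomal RNA removed, per the labels' protocols. The submitters' processing notes name cutadapt 1.9, STAR 2.5.2b, featureCounts 1.5.1, affy and the build mm9, and parameters and the strand counted are not given in the sources used here. The authors deposited 1 RPKM value per gene and library, scaled further by a method not stated. Annotated genes that overlap Axin2, Lef1, Lgr5, Nkd1, Rnf43, Tcf7 and Tcf7l1, some of them antisense, cannot be told apart from these genes by the counting.

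The 13428 genes that reached 1 RPKM in 2 or more libraries were fitted as log2(RPKM + 1) with limma 3.58.1 in R 4.3.3, with 4 group means, an intensity trend and Benjamini-Hochberg adjustment over all tested genes at 0.05. The prior degrees of freedom were infinite beside 4 residual ones, so each variance follows the trend alone and adjusted p of large changes are very small. The procedure was tested on simulated data with independent noise and with no shift of whole libraries or of low values. That test could not show how such shifts affect the calls. The members and lists were chosen with earlier results of these data known. Members were named with Ino80, up to 2 called genes per list, state and direction with separate groups and a higher mean of at least 2 RPKM, and the 3 genes most alike to Axin2, Lef1 and Tcf7l1 with at least 5 RPKM in both states. Besides leaving out each library, the 17 alternatives changed the filter (none, or 5 RPKM), the pseudocount (0.1), the scaling (median centring, or quantile or cyclic loess normalization by state), the variance trend, the states fitted and a replicate block. A library left alone in its group takes its variance from the other groups. Promoters are from RefSeq, GRCm38.p6. Plots used matplotlib 3.10.9 (Python 3.11.15).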

Additional observations from a re-analysis of the deposited data

Results flagged for a closer look

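The difference between libraries labelled KO and WT, on the log2(RPKM + 1) scale, differed between the primed and the naive state by limma's test of the difference itself for 5 genes. Primed minus naive, it was 1.59 for Cdx1 (adjusted p = 2.2e-04), 1.17 for Sp5 (adjusted p = 0.00992), -0.57 for Tcf7 (adjusted p = 0.0066), -1.19 for Tcf7l1 (adjusted p = 3.7e-11) and -1.33 for Nkd1 (adjusted p = 0.00214). The median of all tested genes was -0.59 and 49.6% of them passed the same test, and relative to that median the 5 values were 2.18, 1.76, 0.022, -0.60 and -0.74. Cdx1 was at most 0.105 RPKM in primed libraries and Sp5 at most 0.0805 RPKM in primed WT libraries. Neither could fall as far as the primed median on this scale, which enlarges 2.18 and 1.76. With a pseudocount of 0.1 the value for Cdx1 was 0.98 and not called (limma adjusted p = 0.172).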

How the results depend on the processing

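Of the 8 tested genes, limma called 1 higher and 1 lower in the naive state, 2 and 3 in the primed state, and 2 and 3 for the difference between the states. Median centring gave 4 lower in the naive state, 4 higher and 1 lower in the primed state and 4 higher and 1 lower for the difference. Of all 13428 tested genes it called 2289 lower in the naive state. It called 5580 higher and 3163 lower in the primed state, and 3922 and 2291 for the difference. Quantile normalization gave 3 higher and 5 lower in the naive state and 4 higher for the difference, and loess normalization 2, 5 and 4. In the same order, the shares of all tested genes were 32.1%, 27.3% and 33.6% with quantile and 29.1%, 28.4% and 32.7% with loess normalization. With no filter 1 was higher in the primed state and 1 for the difference, with a pseudocount of 0.1 it was 1 for the difference, with each state alone 2 were lower in the naive state, and with no variance trend 5 were lower in the primed state. Among all genes, no filter called 562 of 24505 higher in the primed state and 284 for the difference. Of 13428 genes, the pseudocount called 247 higher for the difference. Each state alone called 1095 lower in the naive state, and no variance trend 7709 lower in the primed state. With each library left out the counts ranged from 0 to 1 higher and 1 to 2 lower in the naive state, 1 to 2 and 3 to 5 in the primed state, and 1 to 2 and 1 to 4 for the difference. Median centring, quantile and loess normalization turned the primed change of Axin2 to 0.259, 0.253 and 0.17, that of Rnf43 to 0.177, 0.115 and 0.029, and the difference for Axin2 to 0.734, 0.719 and 0.662. The primed change of Cdx1 turned to 0.585 with median centring and 0.123 with loess normalization, and median centring turned the differences for Rnf43 and Tcf7 to 0.028 and 0.183. A pseudocount of 0.1 turned the difference for Lef1 to -0.176. With each library left out, the naive change of Rnf43 ranged from -0.095 to 0.505, and the differences for Axin2 and Lef1 from -0.2 to 0.166 and from -0.36 to 0.418. The cause of these shifts was not tested. The difference of replicate 1 minus replicate 2, taken per tested gene, was correlated between KO and WT libraries. This r was 0.314 in the naive and -0.036 in the primed state, and same-numbered libraries share only a number. With a replicate block 1 gene was higher in the primed state, the call of Sp5 being lost, and the other counts of the 8 genes did not move. The sequencing depth behind values under 1 RPKM is unknown.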
